A study of Mus musculus with 2 samples.

Results

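The 10 genes described here belong to the unfolded protein response and the integrated stress response: Ern1, Atf6, Creb3l3, Atf4, Xbp1, Ddit3, Hspa5, Dnajb9, Trib3 and Asns. They were followed in an ATAC-seq table of open chromatin regions from mouse liver. A region was taken as theirs when the closest transcription start site (TSS) in the authors' annotation was that of the gene, and as a promoter region when its centre lay within 1000 bp of that TSS. By this rule the genes held 24 of the 69549 distinct regions, 7 of the 14387 promoter regions and 17 of the 55162 other regions. Ern1 had 6 regions, Xbp1 5, Creb3l3 4, Trib3 3, Hspa5 and Asns 2 each, and Atf4 and Atf6 1 each, while the median gene had 2. Creb3l3 had no promoter region, and Ddit3 and Dnajb9 had no region at all, because the regions over their starts lay closer to a neighbouring TSS. A further 10 regions overlapped a member but were closest to another gene's TSS, and their values are given apart as regions found by overlap.

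ATAC-seq uses the Tn5 transposase, which inserts sequencing adaptors where DNA is accessible, so that read density reflects open chromatin. The Mettl3-HKO library came from Mettl3 flox/flox mice that also carried Alb-Cre+/-, in which the albumin promoter drives the recombinase in hepatocytes, and the control (flox/flox) library from Mettl3 flox/flox mice. METTL3 is an RNA methyltransferase. Both groups were C57BL/6 mice of 8 weeks on normal chow, and liver tissue of 4 mice was pooled into 1 library per genotype, so all liver cell types contributed. No replicate error exists, no p-value is given, and every comparison is between these libraries.

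The unfolded protein response senses misfolded protein in the endoplasmic reticulum (ER) through membrane proteins, among them IRE1α, the product of Ern1, and ATF6. IRE1α splices Xbp1 mRNA into the form that encodes an active transcription factor, ATF6 is cut in the Golgi to release one, and the kinase PERK phosphorylates eIF2α, which lowers general translation but favours that of ATF4. ATF4 and the factor CHOP, encoded by Ddit3, drive genes of amino acid supply and cell fate, and the hepatocyte, a secretory cell, relies on the ER chaperones that the response raises.

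RefSeq promoter windows on GRCm38.p6, from 250 bases before to 50 after each start, matched 9 of the 10 genes, with 10 windows in all since Creb3l3 has an additional start. Sequence elements known for these pathways were searched in them on both strands. The first sequence below holds the ER stress response element of Hspa5, CCAAT and CCACG with 9 bases between them, at −65 to −47 from the RefSeq start (chr2:34772025-34772043, plus strand). The Asns and Trib3 sequences are the 250 bases before each start, both genes lying on the minus strand, and are shown because these promoters had the highest and the lowest ratio between the libraries among those found by the rule. Capitals mark the matched element, in Asns the C/EBP-ATF element TGATGNAAN at −23 to −15 (chr6:7693224-7693232).
Hspa5, chr2:34772020-34772048: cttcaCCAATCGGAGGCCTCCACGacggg
Asns, chr6:7693210-7693459: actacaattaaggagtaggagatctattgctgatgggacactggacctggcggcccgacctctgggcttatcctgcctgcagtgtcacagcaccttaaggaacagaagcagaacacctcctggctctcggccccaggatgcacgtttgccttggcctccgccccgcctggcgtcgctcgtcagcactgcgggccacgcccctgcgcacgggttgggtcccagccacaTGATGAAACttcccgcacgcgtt
Trib3, chr2:152344061-152344310: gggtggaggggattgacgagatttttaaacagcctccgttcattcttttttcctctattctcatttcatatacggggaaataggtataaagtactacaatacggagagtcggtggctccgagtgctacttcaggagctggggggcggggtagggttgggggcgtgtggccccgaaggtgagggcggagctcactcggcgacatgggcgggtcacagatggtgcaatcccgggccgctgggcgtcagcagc

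The ER stress response element occurred in 0.119% of the 32817 RefSeq windows and, among the 10 genes, in Hspa5. The C/EBP-ATF element occurred in 3.96% of all windows. Beside Asns it was found in Trib3, where it read on the opposite strand at 13 to 21 bases after the start (chr2:152344039-152344047) and so lies outside the sequence printed. All these matches lay inside an open region of the same gene. The core of the unfolded protein response element TGACGTGG was present in 0.676% of windows and the cyclic AMP response element TGACGTCA in 1.79%, with no match in the windows of the 10 genes. A match describes letters and not a bound site. The windows were GC rich for most of these genes, from 57.7% to 66.7% in all but Xbp1 (51.0%) and the outer Creb3l3 start (53.0%), against a median of 52.7% over all windows. CpG dinucleotides were most frequent in Dnajb9, with an observed over expected ratio of 1.09, and least in Creb3l3, with 0.334 at the outer and 0.401 at the inner start, where the median window had 0.383.

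The libraries held 52826202 (Mettl3 flox/flox) and 58038305 (Mettl3-HKO) reads on the scale the authors used, of which 31.7% and 22.3% fell on the regions. The median region carried 85 and 81 counts, and the log2 ratio of Mettl3-HKO to flox/flox, computed on (count + 1) scaled to RPM (reads per 1000000 reads of the library), had a median of −0.38 over all regions and −0.56 over promoter regions. Ratios are therefore also given relative to the median of all regions (centred). Stronger promoter regions had lower ratios, with medians of −0.034 in the weakest and −0.64 in the strongest of 5 equal groups by mean signal. The intervals given (95%, Clopper-Pearson, from each region's share of counts) cover counting error only. Duplicate reads were kept for peak calling, and whether the counts include them is not given. At the targeted gene, the Mettl3 promoter region had 566 and 392 counts (log2 ratio −0.66, interval −0.86 to −0.48), which does not check the deletion of coding exons.

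The promoters of the stress sensors were open in both livers and differed little. For Ern1, the region over the start (chr11:106487303-106488567, centre at −138 bp) had 784 counts from control livers and 623 from Mettl3-HKO livers. The log2 ratio was −0.47 (interval −0.62 to −0.31) and −0.089 after centring, so the gap to the median region was small. The Atf6 region (chr1:170866940-170868125, 239 bp into the gene) had 831 and 794 counts, giving a log2 ratio of −0.20 (interval −0.34 to −0.059) that became 0.18 after centring. A long noncoding RNA, Gm9929, also starts within the Atf6 region, and reads from either start cannot be separated.

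The transcription factor genes Atf4 and Xbp1 stood close to each other. Atf4 (chr15:80254772-80256201, 302 bp into the gene, over its 5′ UTR) had 1372 and 1069 counts, giving a log2 ratio of −0.50 (interval −0.61 to −0.38) and of −0.12 after centring. Xbp1 (chr11:5520480-5521143, centre at 152 bp, over the 5′ UTR) had 596 and 452 counts, giving a log2 ratio of −0.53 (interval −0.71 to −0.36) and of −0.16 after centring. The intervals of these genes overlapped widely, so their ratios were not distinguishable at this depth. The region at the start of Ddit3, found by overlap (chr10:127290183-127290932), had 1233 and 1020 counts, giving a log2 ratio of −0.41 (interval −0.53 to −0.29). This region covers the RefSeq start of Ddit3 at position 127290793, but Mbd6 overlaps that start and an unnamed Ensembl gene is its closest TSS, so the signal is shared among them.

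Among the chaperone genes, Hspa5 encodes BiP, the main HSP70 of the ER, and Dnajb9 encodes ERdj4, a co-chaperone of BiP. The Hspa5 region (chr2:34771498-34772750, 153 bp into the gene) contains the element printed above and had 1060 and 917 counts. Its log2 ratio was −0.34 (interval −0.47 to −0.22), or 0.033 after centring, which leaves it at the level of the median region. The Dnajb9 region, found by overlap (chr12:44209101-44210746), had 2820 and 2205 counts, giving a log2 ratio of −0.49 (interval −0.57 to −0.41). It covers the RefSeq start at 44210068 and the position of the microRNA gene Mir5627, where the Ensembl gene with the closest TSS lies. With 32.4 and 23.1 RPM per kb of region, it was the most open of these promoters in the flox/flox library and second to Ddit3 in the Mettl3-HKO library.

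The downstream genes of ATF4 marked both ends of the range. Trib3, a pseudokinase gene induced by ATF4 and CHOP, had 696 and 454 counts at its start (chr2:152343467-152344545, 26 bp into the gene) and the lowest log2 ratio, −0.75 (interval −0.93 to −0.58). Asns, which encodes asparagine synthetase, had 321 and 349 counts (chr6:7692510-7693442, centre at −104 bp) and the highest, −0.015 (interval −0.24 to 0.21). These promoters are named here as the ends of the range, so the gap between them is a description. Both carry a C/EBP-ATF match. Asns was also the least open promoter of the set in the flox/flox library, at 6.51 RPM per kb against 12.2 for Trib3, and held 6.45 in the Mettl3-HKO library against 7.25.

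**Figure D1:**
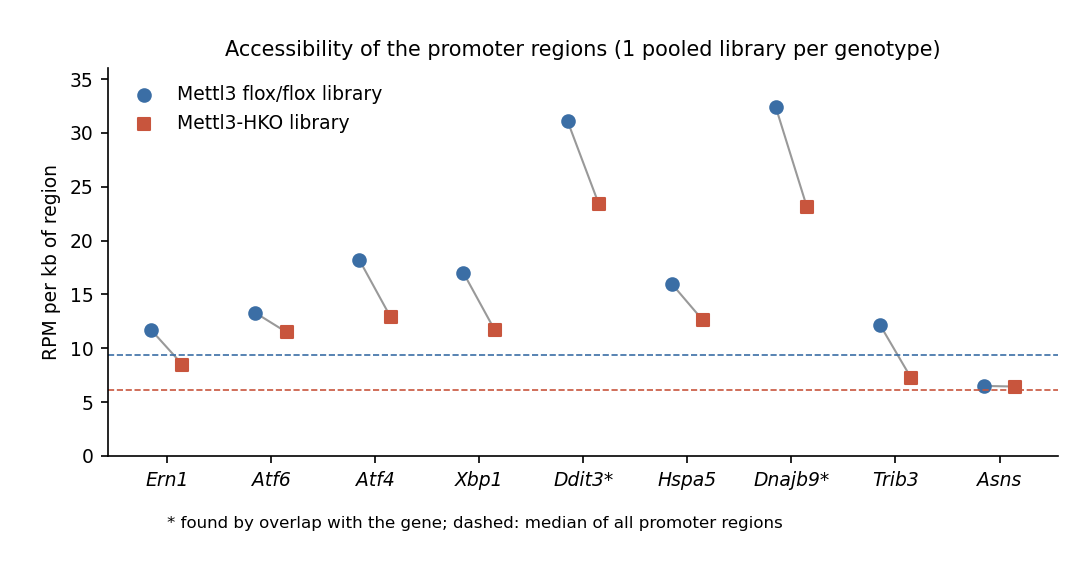
Accessibility (vertical axis, RPM per kb of region) at the 9 promoter regions, 1 point per pooled library (circles Mettl3 flox/flox, squares Mettl3-HKO), with dashed lines at the median of all promoter regions (9.4 and 6.1) and asterisks on the genes found by overlap. Dnajb9 and Ddit3 stand highest in both libraries, and Asns is the promoter at which the points nearly coincide.

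In the Mettl3 flox/flox library the promoters were ordered, by RPM per kb, as Dnajb9 (32.4), Ddit3 (31.1), Atf4 (18.2), Xbp1 (17.0), Hspa5 (16.0), Atf6 (13.3), Trib3 (12.2), Ern1 (11.7) and Asns (6.51). In the Mettl3-HKO library the order was Ddit3 (23.4), Dnajb9 (23.1), Atf4 (12.9), Hspa5 (12.6), Xbp1 (11.7), Atf6 (11.5), Ern1 (8.49), Trib3 (7.25) and Asns (6.45). The neighbours Dnajb9 and Ddit3, Xbp1 and Hspa5, and Trib3 and Ern1 changed places between the libraries, and with 1 library each no spread is at hand to separate neighbours in the order. The levels put Dnajb9 and Ddit3 at percentiles 97.3 and 97.1 of all promoter regions and Asns at 41.5, with the others between 61.5 and 83.5.

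The promoter ratios of these genes lay within the bulk of all promoters, at percentiles 32.8 (Trib3) to 83.5 (Asns). All 7 found by the rule had a log2 ratio below 0, as did 83.9% of all promoter regions, and the interval lay below 0 for all of them but Asns. None was at least 2-fold lower, where 16.3% of all promoter regions were, and none at least 2-fold higher, where 4.07% were. After centring there was again none in either direction, against 5% lower and 6.9% higher over all promoter regions, and 3 of the 7 ratios were then above 0 and 4 below. The median was −0.47, or −0.089 after centring, and the 9 regions with Ddit3 and Dnajb9 gave the same values. Direction depends on the scaling for every promoter but that of Trib3: against the median of promoters in the same signal group, Trib3 was at −0.10 and the others above 0, up to 0.59 for Asns. The interval of the Trib3 ratio (−0.93 to −0.58) includes the median of its signal group, −0.65. Its place below that median is therefore within counting error. All 9 regions carried a called peak in both libraries, as did 83.3% of all promoter regions.

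**Figure D2:**
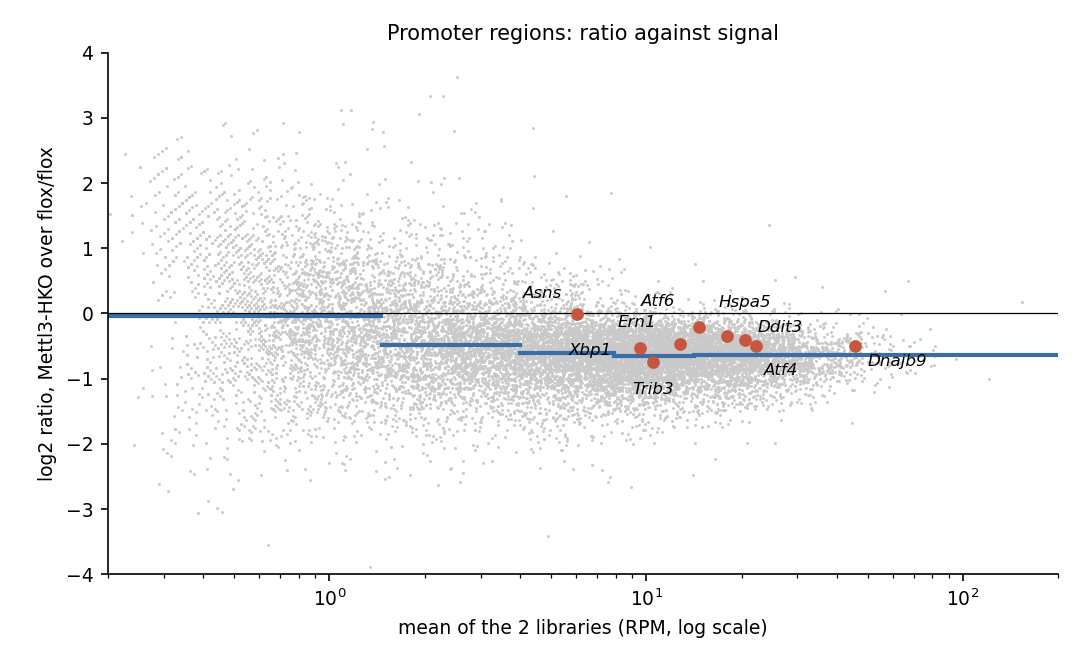
Each promoter region of the table (grey) by its mean signal in the libraries (horizontal axis, RPM, log scale) and its log2 ratio of Mettl3-HKO to flox/flox (vertical axis), with the regions of the stress response genes named in red and blue lines at the median of each of 5 signal groups; 6 regions lie outside the axes. Trib3 lies just under the line of its signal group, Xbp1, Atf4, Dnajb9 and Ern1 just above it, and Asns farthest above it.

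Creb3l3 encodes CREBH, a membrane-bound transcription factor of the liver that is cut in the Golgi in the manner of ATF6. It had no open region within 1000 bp of the TSS the authors used (chr10:81098874), but 4 regions between 4.5 and 8.1 kb inside the gene. The strongest (chr10:81092418-81093226) had 931 counts in the flox/flox and 584 in the Mettl3-HKO library, 21.8 and 12.4 RPM per kb. That level puts it at percentile 97.9 of all other regions, and the region covers the inner RefSeq start of Creb3l3 at position 81092591. This percentile is not comparable with those of the promoters. In the flox/flox library the median other region had 3.52 RPM per kb and the median promoter region 9.4. Its log2 ratio was −0.81 (interval −0.96 to −0.66) and stayed below 0 under every scaling tried, with −0.16 against regions of like signal.

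The other Creb3l3 regions were weaker. The region at 4.5 kb (chr10:81094229-81094559, in an intron) had 230 and 146 counts, giving a log2 ratio of −0.79 (interval −1.10 to −0.49). The region at 7.7 kb (chr10:81091031-81091268, in an exon) had 163 and 92 counts, giving a log2 ratio of −0.95 (interval −1.35 to −0.58), and a peak was called there in the flox/flox library alone. The region at 8.1 kb (chr10:81090660-81090973, in an intron) had 173 and 138 counts, giving a log2 ratio of −0.46 (interval −0.80 to −0.13), with a peak called in the Mettl3-HKO library alone, and its sign turned under some scalings. All 4 ratios were below 0 on the authors' scale, and their intervals overlapped one another.

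Regions away from the start were described for Xbp1, Ern1, Hspa5, Trib3 and Asns as well. Of the 17 other regions found by the rule, 14 had a log2 ratio below 0 and 3 above, where 40.2% of all other regions were above 0. Their median was −0.75 and that of all other regions −0.27, and relative to other regions of the same signal group it was −0.24. At least 2-fold lower was 1 of the 17 (18.8% over all other regions), and at least 2-fold higher was 1 (15.6%). After centring the counts were 1 lower (8.65% over all other regions) and 2 higher (23.5%). A peak had been called in both libraries at 7 of them, in the flox/flox library alone at 7 and in the Mettl3-HKO library alone at 3, where the shares over all other regions were 56.1%, 19.1% and 24.9%. A region with a peak in 1 library alone is in the table through its signal in that library, so its ratio is given as a description only.

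Xbp1 had a broad region just inside the gene, beyond the promoter window (chr11:5521268-5522312, centre at 1.1 kb), with 509 and 342 counts. Its log2 ratio of −0.71 (interval −0.91 to −0.51) had an interval that overlapped that of the Xbp1 promoter. Upstream, the region at −10.7 kb (chr11:5509840-5510173) had 165 and 117 counts and a log2 ratio of −0.63 (interval −0.99 to −0.28). The region at −9.8 kb (chr11:5510767-5511001) had 78 and 48 counts, a peak in the flox/flox library alone and a log2 ratio of −0.82 (interval −1.39 to −0.30). On the authors' scale both were below 0 like the promoter, whose sign turns under some scalings. Downstream, at 6.1 kb (chr11:5526603-5526824), 57 counts stood against 80, with a peak in the Mettl3-HKO library alone and a log2 ratio of 0.35 whose interval (−0.16 to 0.87) includes 0.

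Ern1 differed along its length, in part at regions listed through a peak in 1 library alone. On the authors' scale the regions near its start were lower in the Mettl3-HKO library. The one at −5.7 kb (chr11:106493288-106493638) had 173 and 120 counts and a log2 ratio of −0.66 (interval −1.01 to −0.32). The intronic region at 7.4 kb (chr11:106480330-106480530) had 51 and 33 counts and −0.75 (interval −1.44 to −0.10). At 25.3 kb (chr11:106462308-106462605, intron) 48 and 40 counts gave −0.39, with an interval (−1.04 to 0.24) that includes 0 and a sign that turns under some scalings. At both of these intronic regions a peak had been called in the flox/flox library alone. Farther into the gene the ratios were above 0. At 48.8 kb (chr11:106438838-106439207, intron) 66 counts stood against 137, a log2 ratio of 0.91 (interval 0.48 to 1.36), with a peak called in both libraries. At 50.5 kb (chr11:106437207-106437416, same intron) 29 stood against 82, a log2 ratio of 1.33 (interval 0.74 to 2.03), but a peak had been called there in the Mettl3-HKO library alone. It was the region found by the rule that was at least 2-fold higher. After centring, the ratios at −5.7, 7.4 and 25.3 kb were −0.28, −0.37 and −0.015. Those at 48.8 and 50.5 kb were then 1.28 and 1.71.

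The regions deeper in Ern1 that lie closest to the TSS of Icam2, an endothelial adhesion molecule gene, were also higher. At 74.8 kb (chr11:106412783-106413221, intron) the counts were 42 and 148, a log2 ratio of 1.66 (interval 1.18 to 2.21), with a peak called in the Mettl3-HKO library alone. At 77.1 kb (chr11:106410534-106410928, intron) they were 91 and 137, a log2 ratio of 0.45 (interval 0.062 to 0.85). Each scaling tried raised the ratios at the 4 regions from 48.8 kb on, so that they stayed above 0 adds no support. A peak had been called in both libraries at the regions at 48.8 and 77.1 kb.

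**Figure D3:**
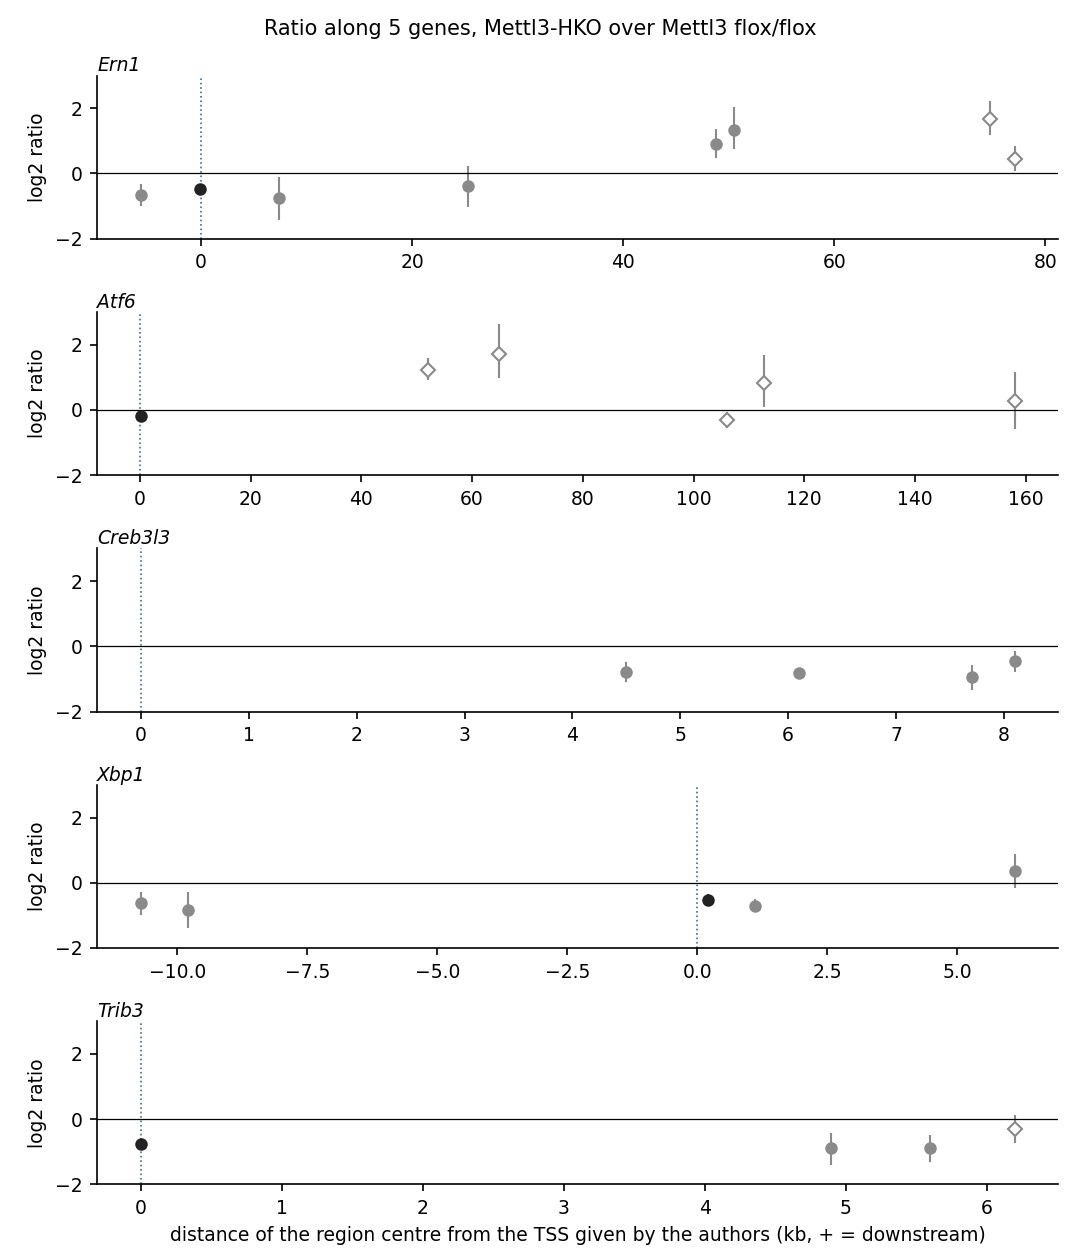
Log2 ratio of Mettl3-HKO to flox/flox (vertical axes) by distance of the region centre from the TSS (horizontal axes, kb) along 5 genes, with 95% counting intervals; black points are promoter regions, grey points other regions, open diamonds regions found by overlap, and the dotted line marks the TSS. In Ern1 the points at 48.8 kb and beyond lie above 0 and those nearer the start below it on the authors' scale, as do all 4 Creb3l3 points, and the signs of the Ern1 promoter, the 25.3 kb region and the Creb3l3 region at 8.1 kb turn under some scalings.

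Atf6 resembled Ern1 in this respect, with regions deep inside the gene that are closest to another gene's TSS. At 52.1 kb (chr1:170815312-170815962, intron) 101 counts stood against 263, a log2 ratio of 1.24 (interval 0.91 to 1.59). At 64.9 kb (chr1:170802733-170803035, intron) 17 counts stood against 64, a log2 ratio of 1.72 (interval 0.99 to 2.64). Both were at least 2-fold higher in the Mettl3-HKO library, as were 15.6% of all other regions. At the weaker of these Atf6 regions a peak had been called in the Mettl3-HKO library alone. The region at 106.0 kb (chr1:170761457-170762102, intron), the strongest of these with 289 and 254 counts, went the other way at −0.32 (interval −0.57 to −0.074), a sign that turns after centring. At 112.8 kb (chr1:170754833-170755122, same intron) the counts were 22 and 44, a log2 ratio of 0.83 (interval 0.095 to 1.67) with a peak in the Mettl3-HKO library alone, and in the 3′ UTR at 158.0 kb (chr1:170709628-170709866) they were 21 and 28, within counting error (interval −0.59 to 1.17). The regions at 112.8 and 158.0 kb lie in the weakest of 5 equal signal groups of other regions, whose median log2 ratio was 0.565. Relative to that median they were at 0.27 and −0.30. On the authors' scale the 5 regions went both ways, where the Atf6 promoter was at −0.20. After centring all 5 were above 0, as was the promoter at 0.18.

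The regions near Hspa5, Trib3 and Asns had ratios below 0, with an interval that reached 0 at 1 of them. A weak region 12.3 kb downstream of the Hspa5 start (chr2:34784180-34784383), within an intron of the neighbour Rabepk, had 43 and 12 counts and the lowest log2 ratio, −1.90 (interval −3.04 to −1.03). It was the region found by the rule that was at least 2-fold lower, and a peak had been called there in the flox/flox library alone. Inside Trib3, the region at 4.9 kb (chr2:152339005-152339276, last intron) had 99 and 58 counts, a peak in the flox/flox library alone and a log2 ratio of −0.90 (interval −1.40 to −0.42). The Trib3 region at 5.6 kb (chr2:152338304-152338603, last exon) had 131 and 77 counts and the same ratio to 2 digits (interval −1.33 to −0.48), close to the promoter value of this gene. The region over the Trib3 3′ UTR at 6.2 kb (chr2:152337652-152338001), closest to the TSS of Rbck1, had 97 and 87 counts, giving a log2 ratio of −0.29 with 0 inside the interval (−0.73 to 0.14). In the Asns 3′ UTR, 17.5 kb from the start (chr6:7675157-7675590), 63 counts stood against 37, a log2 ratio of −0.89 (interval −1.53 to −0.30) with a peak in the flox/flox library alone.

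**Figure D4:**
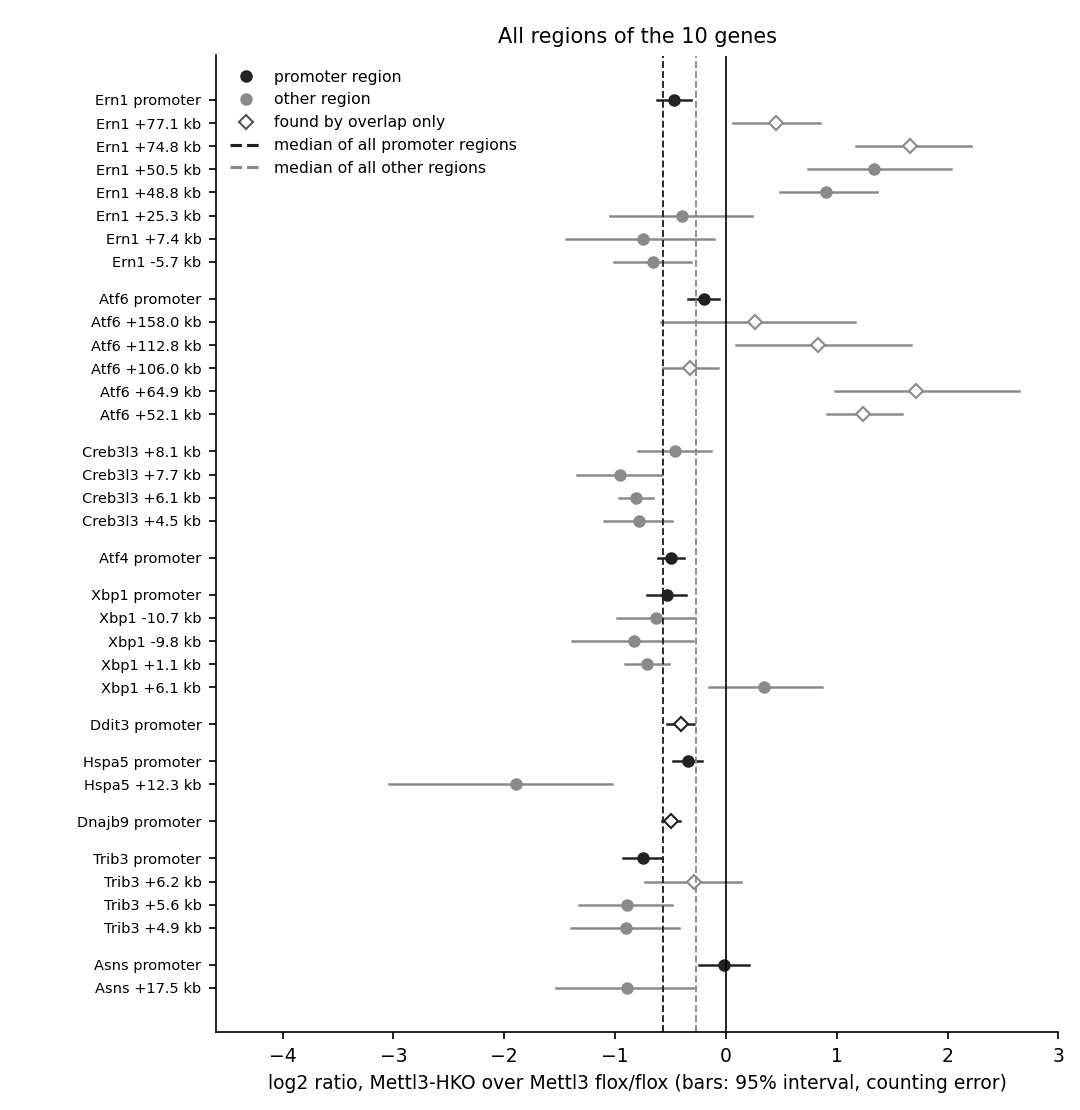
Log2 ratio of Mettl3-HKO to flox/flox (horizontal axis) with 95% counting intervals for all 34 regions, named by gene and distance from the TSS; black marks are promoter regions, grey marks other regions, diamonds regions found by overlap, and dashed lines the medians of all promoter and all other regions. The promoters lie between −0.75 and −0.015, while other regions spread from −1.90 (Hspa5) to 1.72 (Atf6).

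The 8 regions found by overlap that are not promoters had a median log2 ratio of 0.64, or 0.60 relative to other regions of the same signal group. Of these, 6 were above 0 and 2 below, where 40.2% of all other regions were above 0. After centring all 8 were above 0. At least 2-fold higher were 3 (15.6% over all other regions), or 4 after centring (23.5%), and 0 were at least 2-fold lower (18.8%). At 3 of the 8 a peak had been called in the Mettl3-HKO library alone, a share of 24.9% over all other regions. The counts of these 8 regions ran from 17 to 289. Promoter regions of endothelial markers were read beside them, since Icam2 lies beside Ern1. Of 8 endothelial markers, 7 had a promoter region, and their summed signal was 2.9 RPM in the flox/flox and 6.89 RPM in the Mettl3-HKO library. At 5 of the 7 a peak had been called in the Mettl3-HKO library alone, so these are in the table through that library, for example Stab2 with 13 and 52 counts and Kdr with 25 and 89. The others were Clec4g, with 48 and 79 counts and a log2 ratio of 0.57 (interval 0.048 to 1.13), and Eng, with 23 and 28 counts and 0.14 (interval −0.70 to 1.01). The 8 hepatocyte markers had a median of −0.77 and summed signal of 76.4 and 51.1 RPM, with Alb highest at 0.015 and Ttr lowest at −1.08. In tissue libraries a different share of cells of a type and a different signal per cell cannot be told apart. The part of either in the ratios at Ern1 and Atf6 was not tested.

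Markers of other cell types gave few regions. Macrophage markers had a promoter region for 2 of 8 genes, C1qa with 8 and 40 counts and Cd14 with 45 and 72, both listed through a peak in the Mettl3-HKO library alone, with summed signal of 1 and 1.93 RPM. Stellate cell markers had 3 of 8, from Reln at −2.51 to Hand2 at 1.67, with 13.9 and 3.6 RPM in sum. Reln, with 690 and 132 counts, made up most of that sum, while Col1a1 had 37 and 43 counts and Hand2 9 and 34. Cholangiocyte markers had 5 of 8, with Spp1 highest at 1.19 and 15.7 and 12 RPM in sum. None of the 8 lymphocyte markers had a promoter region.

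The wider pathway was read at the strongest promoter region of each of 65 further genes, of which 52 had one. At least 2-fold lower were 4 of them and at least 2-fold higher 1, beside the 16.3% and 4.07% of all promoter regions. After centring they were 1 and 1, beside 5% and 6.9%. Their median log2 ratio was −0.42, where that of all promoter regions was −0.56. For the kinases and factors that control eIF2, 10 of 12 genes had a promoter region, with a median of −0.49. The lowest was Eif2b3, a subunit of the exchange factor that recharges eIF2, with 266 and 112 counts and a log2 ratio of −1.38. The highest was Ppp1r15a, encoding GADD34, which directs dephosphorylation of eIF2α, with 68 and 85 counts and 0.18 (interval −0.29 to 0.67). Eif2ak3, the gene of PERK, had 1139 and 1217 counts and a log2 ratio of −0.04 (interval −0.16 to 0.078), an interval that lies above that of the Ern1 promoter and overlaps that of Atf6.

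Targets and partners of ATF4 and CHOP had a promoter region for 17 of 21 genes, with a median log2 ratio of −0.52, 1 at least 2-fold lower and 1 at least 2-fold higher. Psat1, a serine synthesis enzyme gene, was lowest with 299 and 160 counts and −1.03. Slc7a11, the cystine transporter subunit gene, was highest with 58 and 202 counts and a log2 ratio of 1.65 (interval 1.24 to 2.11), which stayed more than 2-fold after centring. Asns and Trib3, targets of the same factors, lie between these.

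ER chaperone and folding enzyme genes had a promoter region for 11 of 14, with a median log2 ratio of −0.37 and 2 at least 2-fold lower. These were Ero1lb, an oxidase gene of disulfide formation, with 1346 and 504 counts and −1.55 (interval −1.70 to −1.40), and Sdf2l1, with 429 and 197 counts and −1.25. Sdf2l1 was named after its value was seen, while Ero1lb was the lowest and Manf, with 561 and 620 counts and 0.008, the highest of the list. Hspa5 and Dnajb9, at −0.34 and −0.49, were near the median of this list. Genes of ER associated degradation and translocation had 9 of 12, with a median of −0.46 and none past 2-fold, from Ssr1 (593 and 384 counts, −0.76) to Derl3 (344 and 312, −0.28). Membrane-bound factors related to ATF6 and CREBH and their proteases had 5 of 6, with a median of −0.41 and none past 2-fold, from Creb3l1 (48 and 39 counts, −0.43) to Creb3l2 (970 and 903, −0.24).

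**Figure D5:**
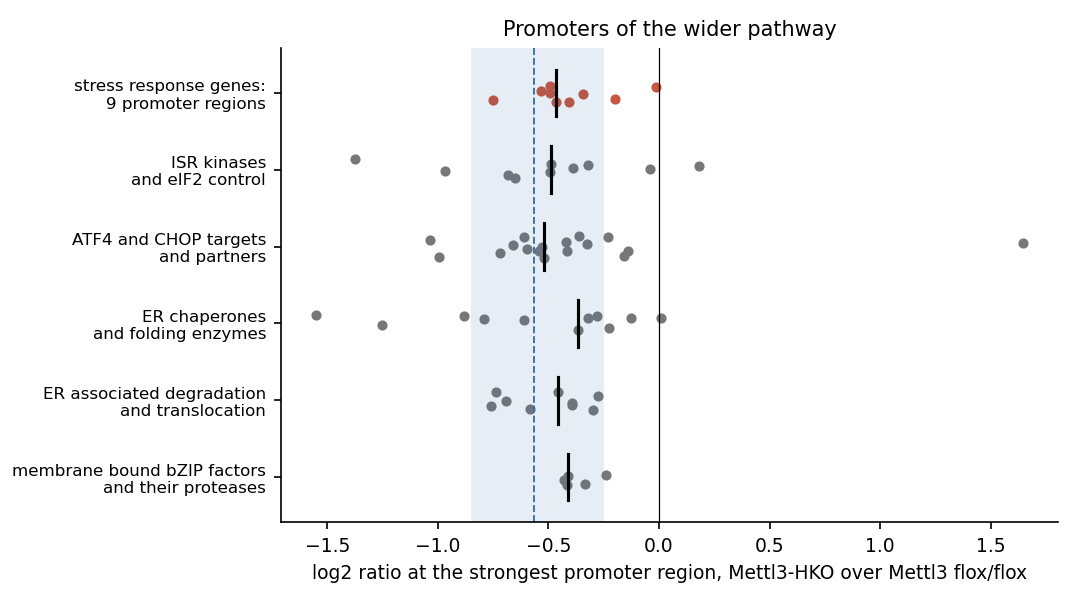
Log2 ratio of Mettl3-HKO to flox/flox (horizontal axis) at the 9 promoter regions of the stress response genes (red) and the strongest promoter region of each gene of 5 further lists (grey), with black bars at the medians; the dashed line and shaded band are the median and the interquartile range of all promoter regions. Slc7a11 stands alone at 1.65 on the right and Ero1lb at −1.55 on the left, while the stress response promoters lie from −0.75 to −0.015.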

How the data were processed

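Liver ATAC-seq was analysed for 1 pooled library of Mettl3 flox/flox and 1 of Mettl3-HKO mice, grouped by the genotype in the sample labels. Per the study's methods and the submitters' processing notes, the authors trimmed adaptors with skewer, aligned reads to GRCm38 with BWA, removed mitochondrial, unpaired and poorly mapped reads, and called peaks per library with MACS2, duplicates kept. How peaks were joined into regions, how reads were counted and whether read ends were shifted for Tn5 are not given in the sources used here. For both libraries the authors deposited raw counts per region, whether a peak was called, and RPM values, which equal the count plus 1 divided by a library total that was recovered from the values. The deposited log2 ratio and fold enrichment columns of the authors' own comparison were not used.

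Of 74821 rows, 5272 repeated a region and were used once, and starts were converted to count from 1. Log2 ratios were computed from the counts with 1 added and the library totals. Past 2-fold stands in for a call, and with 1 library per group nothing was tested across mice. Motifs were searched in RefSeq windows of GRCm38.p6. Of the pathway and marker lists, the strongest promoter region per gene was used, and the lowest and highest gene of each pathway list with at least 50 summed counts, plus Eif2ak3, were named. The members and lists were chosen with earlier results of these data known. Alternatives were other scalings, added counts, promoter windows, a count minimum, a 1.5-fold threshold and the strongest region per gene. The code was tested on simulated counts. Calculations ran in Python 3.11.15 with scipy 1.17.1, pandas 2.3.3 and numpy 2.4.6, and plots in matplotlib 3.10.9.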

Additional observations from a re-analysis of the deposited data

How the results depend on the processing

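The scaling of the libraries set most of what moved. The median log2 ratio of the 7 promoters, −0.47 on the authors' scale, was −0.089 when centred on all regions, 0.097 when centred on all promoter regions, 0.045 when scaled to the counts on regions and 0.18 against promoters of the same signal group. The median of the 52 further pathway promoters, −0.42, was −0.047, 0.14, 0.088 and 0.20 in the same order, and their count at least 2-fold lower, 4 on the authors' scale, was 1, 0, 1 and 0. The count of other regions of the genes at least 2-fold higher was 2 instead of 1 under each of these scalings. With a 1.5-fold threshold, 1 of the 7 promoters and 18 of the 52 pathway promoters were lower, where 47.8% of all promoter regions were, and of the 17 other regions 12 were lower and 2 higher, where 36.5% and 24.3% of all other regions were. With promoters taken within 2000 bp, 2 pathway promoters were at least 2-fold higher. The counts of the genes' promoters past 2-fold remained 0 under all other alternatives, and adding Ddit3 and Dnajb9, or the Creb3l3 region over its inner start, which was done after seeing the data, left them at 0. Of the 34 single regions, 21 kept their sign under all 6 settings of scaling and added count and 13 did not. Each scaling raised the ratios, save that against signal groups of other regions with a median above 0 (0.565 and 0.024). A ratio above 0 could thus seldom turn, and its kept sign adds little. No paired analysis was possible because each genotype has 1 library, and for the same reason no replicate could be left out.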
